A study of Mus musculus with 8 samples.

Results

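A set of miRNA assays with a reported origin outside the usual Drosha route was followed in CD34+/CD105- cells of the mouse renal artery: mmu-miR-320, mmu-miR-484, rno-miR-664, mmu-miR-1839-3p and mmu-miR-1839-5p. They were chosen by assay name, with passenger-strand rows left out, and make up 5 of the 750 distinct miRNA assays measured. The choice was made with the group differences of these assays already known, so those differences are given as a description, with no p of their own. The cells came from 4 mice with ischemia/reperfusion injury of both kidneys, made by clamping the renal arteries, and from 4 mice with sham surgery. CD34 marks endothelial and progenitor cells, CD105 (endoglin) marks endothelial and stromal cells, and the renal artery tissue was digested with collagenase before sorting. No strain, age, clamping time or reperfusion time is given in the sources used here. The measure was the real-time PCR threshold cycle (Ct), which falls as the amount of target rises, and an assay counted as detected below Ct 35.

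Most miRNAs are cut from long transcripts in the nucleus by Drosha with DGCR8 and then from a short hairpin by Dicer. The precursors of miR-320 and miR-484 are known from mouse cells as short capped hairpins whose ends are set by the start and end of transcription, so that Drosha is bypassed while Dicer still acts. Other miRNAs come from small nucleolar RNAs (snoRNAs), which normally guide chemical changes of ribosomal RNA, and miR-664 and miR-1839 have been placed there. A Ct measures how much of the target was amplified and not which enzyme released it, so the shared origin is background that these data do not test.

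RefSeq on GRCm38.p6 held a mature sequence for 3 of the 5 assays, matched by name or by gene, with 4 mature entries in all. They are shown so that their seeds can be compared. Capitals mark the seed, bases 2 to 8, which pairs with target mRNAs.
mmu-miR-484: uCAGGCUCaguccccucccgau
mmu-miR-664-5p: cUGGCUGGggaaaaugacugg
mmu-miR-664-3p: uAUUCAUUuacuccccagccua
mmu-miR-1839-5p: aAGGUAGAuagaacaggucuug
No seed was shared between these 4 sequences, and each seed occurred in 1 of the 1738 mature mouse sequences of the table. The name rno-miR-664 gives the rat miRNA and no arm, so both mouse arms are printed and the probe itself was not compared with them.

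The hairpins show where the mature arms sit, marked in capitals, and were taken from RefSeq on GRCm38.p6.
Mir484 at chr16:14159626-14159692, plus strand: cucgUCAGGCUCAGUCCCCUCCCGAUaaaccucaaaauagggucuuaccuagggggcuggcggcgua
Mir664 at chr1:185242975-185243043, plus strand: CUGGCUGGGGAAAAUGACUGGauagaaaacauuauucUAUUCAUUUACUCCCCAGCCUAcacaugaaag
Mir1839 at chr7:81529916-81529988, plus strand: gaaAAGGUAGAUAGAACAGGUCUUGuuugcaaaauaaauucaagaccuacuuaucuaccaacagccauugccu
The Mir484 hairpin was 58.2% G and C, and 76.1% of the 1005 mouse hairpins in the table had a lower share. The Mir664 and Mir1839 hairpins were at 40.6% and 37.0%, with 12.5% and 6.57% of hairpins lower. Folding with RNAfold gave a minimum free energy of -24.6 kcal/mol for Mir484, -28.1 kcal/mol for Mir664 and -22.0 kcal/mol for Mir1839. Per base, 88.2% of hairpins were more stable than Mir1839, against 66.0% for Mir484 and 49.7% for Mir664.

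Gene neighbours were read on the same assembly. Of the 69 bases of the Mir664 hairpin, 64 overlap Snora36b, a snoRNA gene, and all 69 lie within Rab3gap2. All 73 bases of Mir1839 lie within the long noncoding RNA gene 2900076A07Rik, the only gene in the table that overlaps them, so an overlap with a listed snoRNA gene was seen for Mir664 and not for Mir1839. Mir320 overlaps no listed gene and lies 38 bases from Polr3d, which encodes an RNA polymerase III subunit. Mir484 also stands between genes, 347 bases from Marf1 and 3582 bases from Nde1. Overlaps were read from positions alone, so a gene on the opposite strand would count as well. Whether a hairpin falls in an exon or an intron was not analysed here.

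The mice differed in how many assays reached the limit. Between 82 and 98 miRNA assays were detected in ischemia/reperfusion mice and between 75 and 163 in sham mice, with sham mouse 2 the lowest of all. Averaged over the 54 miRNAs found below the limit in every mouse, Ct lay between 27.7 and 28.1 after ischemia/reperfusion and between 24.8 and 28.4 in sham mice, the latest being sham mouse 2. The endothelial miRNA miR-126-3p was detected in all 8 mice. So were the leukocyte miR-223, miR-150 and miR-155, the smooth muscle miR-145 and the fibroblast miR-199a-3p and miR-152. Other markers of these lists reached the limit in fewer mice. The leukocyte miR-142-3p was detected in 2 ischemia/reperfusion mice and 1 sham mouse, miR-342-3p in 1 sham mouse and miR-142-5p in none. The smooth muscle miR-143 was detected in 2 sham mice only. The fibroblast mmu-miR-214 was detected in 4 ischemia/reperfusion mice and 3 sham mice, miR-21 in 3 of each group and miR-199a-5p in none. The endothelial miR-221 was detected in 3 sham mice and in no ischemia/reperfusion mouse. The erythroid miR-451 and miR-486 were detected in no mouse. Of 9 epithelial markers, miR-200a, miR-200b, miR-200c, miR-141 and miR-429 were detected in no mouse, and the other 4 were detected in at least 1 mouse. CD34 and CD105 themselves are not miRNAs and have no assay among these rows. In such sorted pools, fewer cells of a type and less RNA per cell cannot be told apart.

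Detection alone separated the members. miR-320 and miR-664 were detected in 8 of 8 mice, miR-484 in 6, miR-1839-3p in 3 and miR-1839-5p in none. The number of members detected was 3, 2, 3 and 3 in ischemia/reperfusion mice 1 to 4, and 4, 2, 4 and 4 in sham mice 1 to 4. Both animals numbered 2, which had the fewest detected assays of their groups, also had the fewest members. Among the 54 miRNAs detected everywhere, miR-320 had the 41st lowest mean Ct (29.6) and miR-664 the 44th (29.7). Both are therefore late-amplifying assays, and assays of different sequence are not compared in amount.

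Levels below are minus delta Ct, that is, the authors' reference value minus Ct, so that 1 unit is a doubling on the log2 scale if PCR is fully efficient. A difference is the ischemia/reperfusion mean minus the sham mean.

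miR-320 is a miRNA studied in the ischemic mouse heart, where the small heat shock protein Hsp20 was reported as a target. Its Ct was 32.5, 31.6, 29.4 and 31.6 in ischemia/reperfusion mice 1 to 4, and 27.2, 31.3, 27.3 and 25.7 in sham mice 1 to 4. Sham mice 1, 3 and 4 amplified earlier than every ischemia/reperfusion mouse, and sham mouse 2 lay among the ischemia/reperfusion mice. On the minus delta Ct scale the levels were -11.48, -9.27, -8.86 and -9.94 in ischemia/reperfusion mice, and -6.54, -8.89, -8.35 and -7.80 in sham mice. The groups overlapped only in ischemia/reperfusion mouse 3, whose level lay just above that of sham mouse 2. The mean level was -9.89 ± 1.15 after ischemia/reperfusion and -7.89 ± 1.01 in sham mice (SD, n = 4 each). The difference was -1.99 ± 0.78 (limma SE), a level 0.251 times that of sham mice. Left out singly, the mouse that moved it most was ischemia/reperfusion mouse 1, without which it was -1.46.

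miR-484 is known in mouse heart muscle cells for targeting Fis1, a factor of mitochondrial fission. Its Ct was 32.2, 32.8 and 31.7 in ischemia/reperfusion mice 1, 3 and 4, and 29.6, 27.8 and 26.6 in sham mice 1, 3 and 4. The animals numbered 2 had no Ct in either group, so each mean rests on 3 mice. The levels were -11.22, -12.31 and -10.02 after ischemia/reperfusion, and -8.98, -8.78 and -8.62 in sham mice. The groups did not overlap, and the gap between the lowest sham level and the highest ischemia/reperfusion level was 1.04. The mean level was -11.19 ± 1.15 after ischemia/reperfusion and -8.79 ± 0.18 in sham mice (SD, n = 3 each). The difference was -2.39 ± 0.80 (limma SE), a level 0.190 times that of sham mice. Setting the missing well of each group to Ct 35 gave -1.81, and the groups then overlapped, since the filled wells were -12.63 and -12.56.

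The authors' deposited table gives miR-484 a fold of 63.8 (ischemia/reperfusion over sham), the opposite direction. That fold follows from ischemia/reperfusion mouse 2, whose well has no Ct but a deposited delta Ct of -22.37. The authors' reference value for that mouse and card was 22.37, so the deposited value holds the reference alone, with no Ct. With wells that have a Ct, the ratio was 0.190. For miR-320 and miR-664 the authors' deposited table gives folds of 0.251 and 0.0857, as here.

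Only 2 of the 750 assays (0.267%) were missing in both animals numbered 2 and detected in the other 6 mice. They were miR-484 and hsa-miR-196a, a Hox-cluster miRNA picked after its values were seen.

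Of the 3 members in the fit, rno-miR-664 had the largest pooled spread between mice of a group. Its Ct was 33.6, 29.5, 34.1 and 31.0 in ischemia/reperfusion mice 1 to 4, and 28.7, 28.9, 25.6 and 26.6 in sham mice 1 to 4. The levels were -12.09, -6.88, -12.46 and -9.06 after ischemia/reperfusion, and -7.27, -5.87, -5.41 and -7.76 in sham mice. Ischemia/reperfusion mice 1 and 3 lay far below all sham mice, mouse 4 lay below them by a smaller margin, and mouse 2 lay inside the sham range. The mean level was -10.12 ± 2.65 after ischemia/reperfusion and -6.58 ± 1.12 in sham mice (SD, n = 4 each). The difference was -3.54 ± 1.28 (limma SE), a level 0.0857 times that of sham mice. It was -4.63 without ischemia/reperfusion mouse 2 and -2.77 without ischemia/reperfusion mouse 3. Ordered by the spread between mice of a group, miR-664 stood 59th of 72 tested miRNAs (pooled SD 2.03), miR-320 28th (1.08) and miR-484 16th (0.82), against a median pooled SD of 1.27. Sham mouse 2, late for miR-320 and without a Ct for miR-484 and miR-1839-3p, had the second highest level of miR-664.

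**Figure D1:**
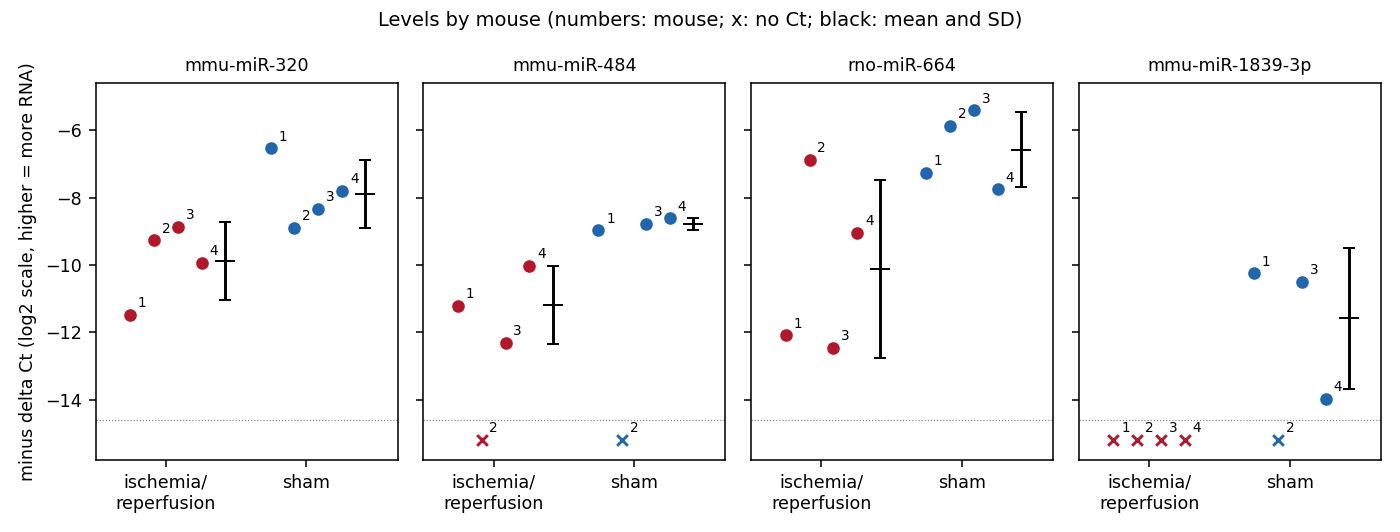
Minus delta Ct (log2 scale) of miR-320, miR-484, rno-miR-664 and miR-1839-3p in ischemia/reperfusion mice (red) and sham mice (blue), numbered by mouse, with the mean and SD in black and crosses for wells without a Ct. The groups do not overlap for miR-484 (3 mice each), ischemia/reperfusion mouse 2 reaches the sham range for miR-664, and miR-1839-3p has values in 3 sham mice only.

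The arms of miR-1839 gave few values. miR-1839-3p had a Ct of 31.7, 30.7 and 32.8 in sham mice 1, 3 and 4, and no Ct in sham mouse 2 or in any of the 4 ischemia/reperfusion mice. The sham levels were -10.25, -10.51 and -13.99, so that mouse 4, with the most detected assays of all, had the lowest level. Of all 750 assays, 9 (1.20%) were detected in 3 or 4 sham mice and in no ischemia/reperfusion mouse, and 1 (0.133%) showed the reverse. miR-1839-3p was outside the fit, and any difference depends on the value given to wells without a Ct. With Ct 35 in those wells it was -1.42, the filled ischemia/reperfusion levels lying between -13.53 and -12.37, above sham mouse 4. With Ct 40 it was -5.17. miR-1839-5p had no Ct in any of the 8 mice, as did 540 of the 750 assays (72.0%), so the arms could not be compared.

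The 72 miRNAs detected in at least 3 mice of each group were fitted together with limma, and 3 of the 5 members were among them. With Benjamini-Hochberg adjustment at 0.05, limma called 0 of the 72 (0%) and 0 of the 3 members, and the lowest adjusted p of the fit was 0.228. At an unadjusted limma p under 0.05 there were 10 of 72 (13.9%), among them all 3 members, and since their choice followed these values nothing is read from that count. The mean was lower after ischemia/reperfusion in 49 of 72 (68.1%) and in 3 of 3 members. In order of difference from the lowest, miR-664 was the third of 72, miR-484 the ninth and miR-320 the 13th. All ischemia/reperfusion values lay below all sham values in 5 of 72 (6.94%), which were miR-484, miR-126-3p, mmu-miR-214, miR-218 and hsa-miR-196a. Of these, miR-484 and hsa-miR-196a had no detected value in either animal numbered 2, and mmu-miR-214 had none in sham mouse 2. Groups with fewer values separate more easily. The median difference was -2.39 over the 3 members and -0.80 over all 72.

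**Figure D2:**
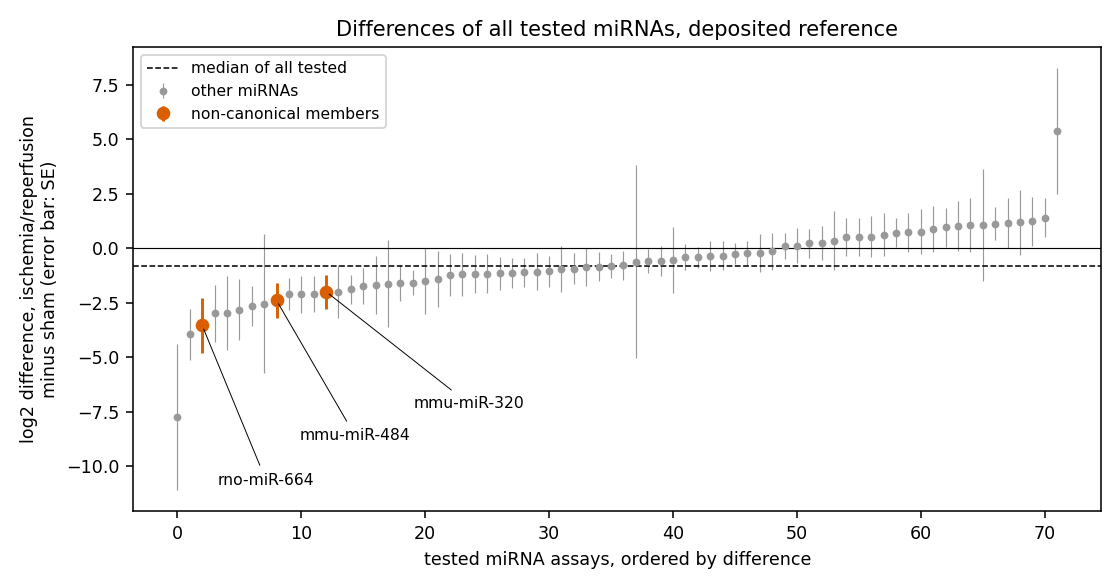
Log2 difference (ischemia/reperfusion minus sham, y axis) of the 72 tested miRNA assays in order of size (x axis), with SE as bars and the members in orange. The members lie at -3.54, -2.39 and -1.99, below the median of all tested miRNAs at -0.80 (dashed line).

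The differences depended on the reference, by unequal amounts. The median of the 72 differences was -0.80 with the deposited reference, -0.24 with the mean of those 54 miRNAs, -1.93 without a reference, -1.22 with snoRNA202 and -0.30 with snoRNA135 and Y1 of the first card. snoRNA202 and snoRNA135 are snoRNAs and Y1 is a small cytoplasmic RNA, all used as controls. Relative to those medians, miR-320 lay between -1.46 and -1.20, miR-484 between -2.34 and -1.52 and miR-664 between -2.75 and -2.64. The direction of each member was the same under all 5 references. A reference subtracts the same value from every assay of a card in a mouse. The distances to the medians were therefore largely fixed and are no separate support. Without a reference, miR-320 was at -3.38 and miR-484 at -4.27. In minus Ct, the snoRNA controls themselves were at -0.71 (snoRNA202), -1.56 (snoRNA135, first card) and -1.22 (snoRNA135, second card). On the second card snoRNA135 had a Ct in 3 of 4 ischemia/reperfusion mice, with a mean of 35.3. miR-664, also on the second card and reported as snoRNA-derived, was at -4.57 on that scale. A part of its origin in this value was not tested. snoRNA202 had a Ct of 24.9 ± 0.674 after ischemia/reperfusion and 24.2 ± 1.94 in sham mice (SD, n = 4 each).

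**Figure D3:**
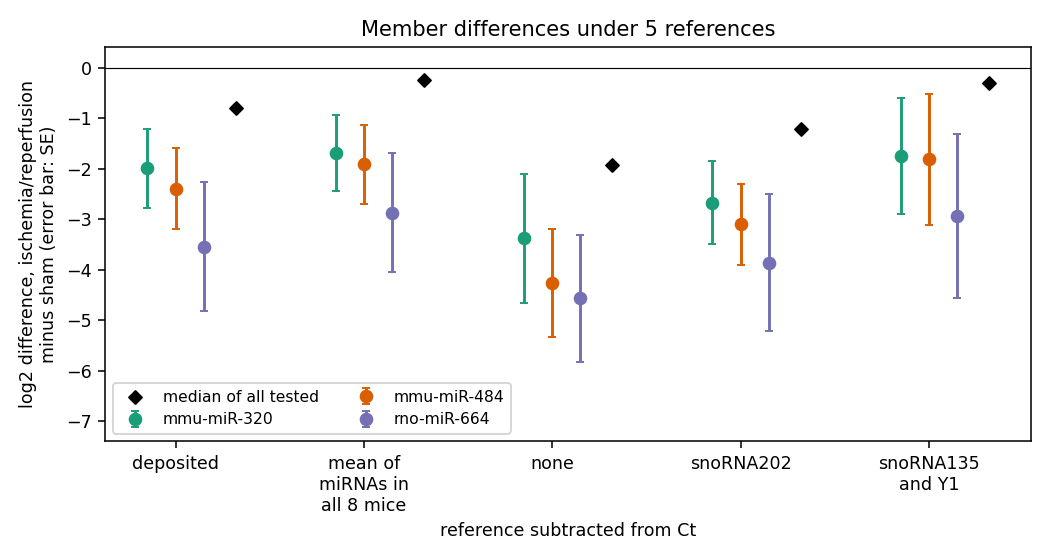
Log2 difference (ischemia/reperfusion minus sham, y axis, SE as bars) of miR-320, miR-484 and miR-664 under 5 references (x axis), with the median of the 72 tested miRNAs as black diamonds. Each member lies below the median under every reference, which a shared reference largely fixes. The medians themselves range from -1.93 to -0.24.

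The distances between members varied across mice. miR-320 and miR-484 are on the same card, so the difference of their levels carries no reference. It was -0.26, 3.45 and 0.083 in ischemia/reperfusion mice 1, 3 and 4, and 2.44, 0.43 and 0.82 in sham mice 1, 3 and 4. Its mean was 1.09 ± 2.05 after ischemia/reperfusion and 1.23 ± 1.07 in sham mice (SD, n = 3 each), and ischemia/reperfusion mouse 3 and sham mouse 1 stood out with relatively more miR-320. miR-320 minus miR-664 ranged from -3.03 to 3.60 over 8 mice, with an SD of 2.26. For miR-484 minus miR-664 the range was -3.37 to 0.87 over 6 mice, with an SD of 1.48. miR-664 is on the other card, so its distances carry the references of both cards. The median SD against other miRNAs was 1.64 for miR-320, 1.58 for miR-484 and 2.64 for miR-664.

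The miRNAs most like each member were then listed. The measure was the SD over mice of the difference in level, which is small where 2 miRNAs keep the same distance in every mouse. For miR-320, the closest of 53 miRNAs over 8 mice were miR-26a (0.971), the smooth muscle miRNA miR-145 (0.973) and miR-29c (1.04), a regulator of collagen genes, against a median of 1.64. miR-664 ranked 39th of those 53, at 2.26. For miR-484, the closest of 66 miRNAs over 6 mice were miR-218 (0.380), which is encoded in introns of the Slit genes, miR-125a-5p (0.624) and the hsa-miR-214 assay (0.705), against a median of 1.58. miR-320 ranked 28th there (1.46) and miR-664 31st (1.48). The hsa-miR-214 assay is on the other card from miR-484, so that distance carries the references of both cards. Under each of the other references, miR-127 took the place of hsa-miR-214. For miR-664 over 8 mice, the closest miRNAs were miR-218 (1.68), miR-222 (1.81) and miR-126-3p (2.00), against a median of 2.64, and miR-320 ranked 11th of 53. miR-484, with values in 6 mice, was outside this ranking, and its SD against miR-664 over those 6 mice was 1.48. All of these pairs share RNA samples, and pairs within a card also share the reference. The closest of many miRNAs are set beside few fixed members, so no order between the sets is read from these values.

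The neighbours were picked for likeness over the mice of both groups, so a difference like that of the member is built into the choice, and their values are a description only. The differences were -1.11 ± 0.65 for miR-26a, -2.09 ± 0.84 for miR-145 and -1.07 ± 0.87 for miR-29c (SE, n = 4 each). They were -1.89 ± 0.66 for miR-218, -1.13 ± 0.70 for miR-125a-5p, -0.86 ± 0.87 for hsa-miR-214, -2.12 ± 0.74 for miR-222 and -1.59 ± 0.57 for miR-126-3p. Of these 8 neighbours, miR-125a-5p had 3 values in the ischemia/reperfusion group.

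Cell type markers were read beside the members. Of 5 endothelial markers, 4 were tested, with 3 lower, 1 higher and a median difference of -1.74. The higher one was miR-126-5p (0.11 ± 0.60, SE), the other arm of miR-126-3p (-1.59 ± 0.57). The summed level of the endothelial markers (the sum of 2 to the power of minus delta Ct) was 0.0235 to 0.0599 in ischemia/reperfusion mice and 0.0933 to 0.182 in sham mice. Of 5 fibroblast markers, 4 were tested and 4 were lower, with a median of -2.82 and summed levels of 0.000906 to 0.0232 after ischemia/reperfusion and 0.0119 to 0.0488 in sham mice. The lowest were mmu-miR-214 (-3.95 ± 1.17, SE) and miR-21 (-2.99 ± 1.33), both without a detected value in sham mouse 2. The hsa-miR-214 assay, which is not in this list, was at -0.86 ± 0.87. Of 6 leukocyte markers, 3 were tested, with 1 lower, 2 higher and a median of 0.23, and summed levels of 0.00485 to 0.0587 after ischemia/reperfusion and 0.00665 to 0.0332 in sham mice. Of 9 epithelial markers, 0 were tested. miR-203 and miR-204 were each detected in 2 ischemia/reperfusion mice and 3 sham mice, miR-194 in 0 ischemia/reperfusion mice and 2 sham mice, and miR-192 in 0 ischemia/reperfusion mice and 1 sham mouse. The Ct of miR-194 was 20.5 in sham mouse 3 and 23.7 in sham mouse 4. The epithelial summed level was 0 to 0.0923 after ischemia/reperfusion and 0 to 0.364 in sham mice. The smooth muscle markers summed to 0.000159 to 0.000684 after ischemia/reperfusion and 0.000309 to 0.00289 in sham mice. Limma called 0 of the tested markers, and the part of any of these lists in the member differences was not tested.

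Other small RNAs with unusual origins were measured on the same cards. Mirtrons are miRNAs whose hairpins are released by splicing, without Drosha. Of 6 mirtron assays listed, 5 were found on the cards and 0 were detected, although miR-1982.2 had a Ct above 35 in 2 sham mice. The passenger strand of the mirtron miR-877, which was picked once its values were known, was detected in all 8 mice. Its level was -9.85, -7.42, -7.89 and -7.65 in ischemia/reperfusion mice 1 to 4, and -6.95, -8.80, -8.72 and -10.40 in sham mice 1 to 4. The sham mice enclosed all ischemia/reperfusion values, and the difference was 0.51 ± 0.88 (SE). miR-451, which is cut by Argonaute 2 and needs no Dicer, was not detected in any mouse.

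Assays named miR-1937b, miR-1937c, miR-720 and miR-1274a match pieces of transfer RNA rather than classical miRNAs. Of 4 such assays on the cards, 3 were tested, and 0 passed the limma threshold in either direction. Their differences were -1.18 ± 0.87 for miR-1937b, -1.17 ± 0.90 for miR-1937c and -1.20 ± 0.98 for miR-720 (SE, n = 4 each), with a median of -1.18. miR-1937b had a level of 2.01, 0.40, -0.020 and 2.54 in ischemia/reperfusion mice, and 3.51, 0.70, 3.31 and 2.11 in sham mice. The groups overlapped widely, and sham mouse 2 was again the lowest sham mouse. miR-1274a was detected in 1 of 4 ischemia/reperfusion mice and 3 of 4 sham mice, and, like miR-484 and miR-1839-3p, had no Ct in sham mouse 2.

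**Figure D4:**
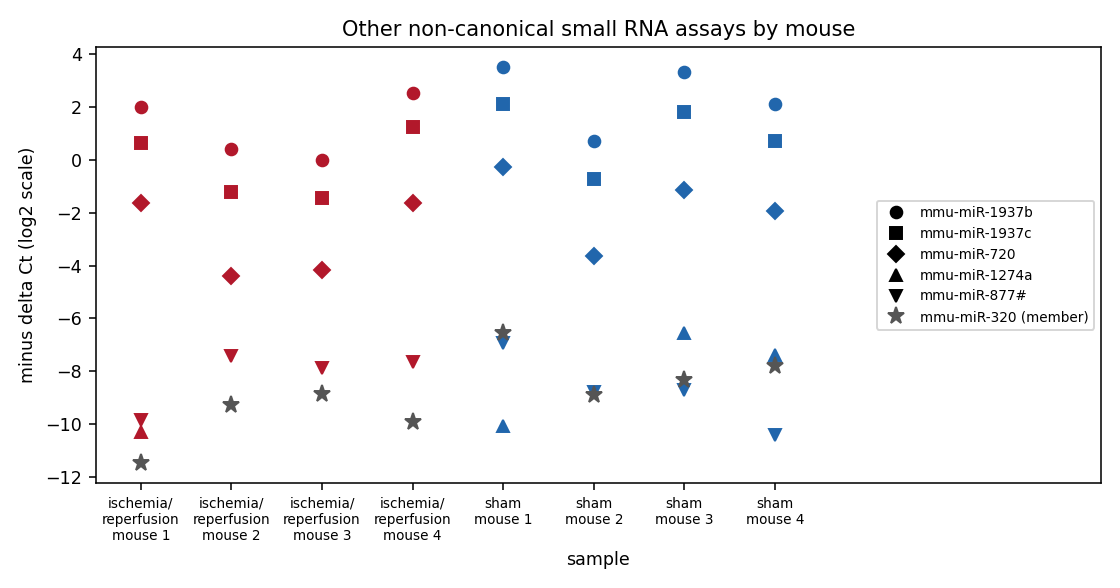
Minus delta Ct (log2 scale, y axis) of 5 other small RNA assays and of miR-320 (grey stars) in each mouse (x axis; red, ischemia/reperfusion; blue, sham). miR-1937b, miR-1937c and miR-720 keep their order in every mouse, and miR-877# in sham mouse 4 is the lowest of its 8 values at -10.40.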

How the data were processed

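Per the labels' protocols, RNA was extracted with mirVana chemistry and cDNA was read on a 7900HT Fast instrument. The authors deposited Ct values, delta Ct values on the log2 scale and fold changes as a ratio. Within each sample and card, the deposited delta Ct differs from Ct by a constant, taken here as the authors' reference, whose RNA is not given in the sources used here. Wells without a Ct (13 held a deposited delta Ct) were left out as missing. Levels were expressed as minus delta Ct, repeated wells entered as their mean, and controls were kept out of the fit. miRNAs below Ct 35 in at least 3 mice of each group were fitted with limma 3.58.1 (R 4.3.3, two-sided), and p-values were adjusted by Benjamini-Hochberg with a threshold of 0.05. The fit was also run on simulated data with independent noise for each miRNA. Real assays of a mouse shift together, so nothing about the reliability of these calls is read from that run. Hairpins were folded with RNAfold 2.7.2. The labels number separate mice, and precision rests on the spread between them, since no well counts are given.

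The members, lists and tests were chosen with earlier results of these data known. The names given are the members, the 3 closest miRNAs of each, listed markers and controls. Any other was picked after its values were seen. Alternatives were other references, detection limits, fills for missing wells, leaving out each mouse, a replicate block and an exact permutation test.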

Additional observations from a re-analysis of the deposited data

How the results depend on the processing

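The limma count of 0 held under the 4 other references, a limit of Ct 32, the deposited values for wells without a Ct and the replicate block. It was 1 (hsa-miR-421, no member) with a limit of Ct 38, with any determined Ct, and with wells not detected at Ct 35 or undetermined wells at Ct 40. When each mouse was left out it ranged from 0 to 1, being 1 without sham mouse 1 (miR-1896) and without sham mouse 2 (miR-199a-3p). Unadjusted limma p-values under 0.05 numbered 10, and 4 to 21 under the alternatives, while the exact permutation test gave 2. Its adjusted count was 0, which says little, since its smallest two-sided p is 0.0286 with 4 mice per group and 0.1 with 3.

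Without a reference, miR-320 was at -3.38 and miR-484 at -4.27. miR-484 turned to 5.99 with the deposited delta Ct of its well without a Ct, by construction. Leaving out each mouse gave -2.34 to -1.46 for miR-320, -2.98 to -1.83 for miR-484 and -4.63 to -2.77 for miR-664. With the replicate block the differences were -1.99 ± 0.95, -2.39 ± 0.76 and -3.54 ± 1.22 (SE). The numbers name separate mice. The correlations of same-numbered deviations over 54 miRNAs were -0.38, -0.15, 0.020 and -0.25, so no pairing by number was seen among these. The 54 leave out the assays missing in both animals numbered 2, and a run shared by number was not tested. At a limit of Ct 32, miR-484 and miR-664 had fewer than 3 values in the ischemia/reperfusion group and left the fit. No arm difference of miR-1839 was possible at any setting.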

Other observations

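Within a mouse, the 3 tested assays of transfer RNA pieces kept nearly constant distances. miR-1937b minus miR-1937c was 1.28 to 1.60 over 8 mice (SD 0.096), and miR-1937b minus miR-720 was 3.65 to 4.78 (SD 0.362). miR-1274a did not keep such a distance. Its level was -10.29 in ischemia/reperfusion mouse 1 and -10.06, -6.55 and -7.38 in sham mice 1, 3 and 4. In the same mice miR-1937b was at 2.01, and at 3.51, 3.31 and 2.11. The distance of the members from miR-1937b varied more than those of the 3 tested assays. Its SD was 1.63 for miR-320 and 2.58 for miR-664 over 8 mice, and 0.832 for miR-484 over 6 mice. miR-664 shares a card with the transfer RNA assays. miR-320 and miR-484 are on the other card, so their distances also carry the references of both cards.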
